A study of Mus musculus with 24 samples.

Results

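The 4 JAK kinases and 5 STAT factors examined here (Jak1, Jak2, Jak3, Tyk2, Stat3, Stat4, Stat5a, Stat5b and Stat6) were taken by their symbols from the deposited count tables of mouse lymph node B cells, 9 of the 27179 genes listed. All 9 had at least 450 counts in every library, and all 9 passed the filter on low counts in each stage. The tables hold 24 RNA-seq libraries from C57BL/6 mice, with 2 biological replicates in every one of 12 groups made up of 4 genotypes and 3 stages. Control mice were Cd23T/+. Mice called PU.1 cKO were Spi1fl/fl Cd23T/+, those called SpiB KO were Spi1fl/fl Cd23+/+ Spib-/-, and those called PU.1 SpiB DKO combined Spi1fl/fl Cd23T/+ with Spib-/-. Cd23T is a BAC transgene that drives Cre from the Cd23 regulatory sequences, active from the transitional B cell stage on, so that 3 of the genotypes, control among them, carry Cre and SpiB KO does not. B cells were taken naive or after 48 h in culture, either with CD40L + IL-4 or stimulated by LPS + IL-4. Cells had been sorted as CD3- B220+ CD138-. PU.1 cKO and the double mutant are called below the genotypes without PU.1, although the study describes marked retention of the floxed Spi1 exon in naive cells of the double mutant. The study gave this as its reason to turn to the cultured cells. The labels give no age or sex. According to its methods, the study matched both within experiments.

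Cytokine receptors have no kinase of their own. JAK kinases bound to the receptor chains phosphorylate the receptor and the STAT proteins that dock there, and phosphorylated STATs pair up and move to the nucleus to switch on their target genes. In B cells the IL-4 receptor signals through JAK1 and JAK3 to STAT6, which acts in class switching to IgG1 and IgE and in the induction of CD23. PU.1 (Spi1) and SpiB (Spib) are related Ets factors, and the comparisons ask how the kinases and the STATs that cytokine signals depend on were expressed without one or both of them.

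The libraries held 9598674 to 73658850 counts on genes. The median library total was 15997850 for naive cells, 38312682 for LPS + IL-4 and 10070288 for CD40L + IL-4, and 1 CD40L + IL-4 library (PU.1 cKO replicate 2, 61640683 counts) was far deeper than the other 7 of its stage. The B cell genes Cd79a and Ms4a1 were above 450 CPM (counts scaled to a common library total) in all 24 libraries. Spib was 178 CPM or higher in the 12 libraries with intact Spib and 100.4 CPM or lower in the 12 labelled Spib-/-. Spi1 was 60.7 to 174 CPM in control and 35.1 to 59.5 CPM in PU.1 cKO. The PU.1 SpiB DKO libraries held less Spi1 than control in naive cells (103 and 110.2 CPM against 155 and 174) and in CD40L + IL-4 (32.5 and 25.6 against 84.9 and 107.9), but the LPS + IL-4 libraries labelled PU.1 SpiB DKO (63.9 and 58.9 CPM) overlapped the control libraries (72.0 and 60.7). These counts cover the whole Spi1 gene, of which Cre removes exon 5 alone, so they check that label only in part. From the reads over that exon, the study describes deletion as high in the cultures, those with LPS + IL-4 included. CPM within a stage are scaled by edgeR's TMM method over its 8 libraries. Differential expression (DE) was called where edgeR's quasi-likelihood test gave an adjusted p (Benjamini-Hochberg) below 0.15, the change exceeded 1.5-fold and the authors' log2 RPKM averaged above 0. With 2 libraries a group, the smallest p of an exact permutation test for 1 gene is 0.333, so the tests rest on the spread shared across genes.

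Which of these genes were the most abundant was compared on the authors' log2 RPKM scale, which divides by exon length. In control naive cells Jak1, the kinase shared by most cytokine receptor families, led at 6.69 ± 0.11 log2 RPKM (SD, n = 2). Stat6 followed at 6.18 ± 0.09, and Stat3 (5.49 ± 0.15) and Jak3 (5.10 ± 0.08), the kinase that binds the common gamma chain, came next. Stat5b stood at 4.74 ± 0.08. The libraries of Stat4 (4.14 ± 0.21), Tyk2 (4.04 ± 0.11) and Jak2 (3.98 ± 0.10) overlapped in pairs along that order, and Stat5a was lowest at 3.51 ± 0.19. Jak1 also led after CD40L + IL-4 (6.35 ± 0.29) and after LPS + IL-4 (6.39 ± 0.12), with Stat3 ahead of Stat6 in both. Tyk2 was last in both cultures, at 3.76 ± 0.09 and 3.70 ± 0.10. After CD40L + IL-4 the only neighbours in the order that overlapped were Jak3 and Jak2, and in LPS + IL-4 the pairs Stat4 and Jak3, and Jak3 and Jak2, did. The LPS + IL-4 values were normalized apart from the others, so levels in that stage are comparable among genes but not directly with the other 2 stages.

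**Figure D1:**
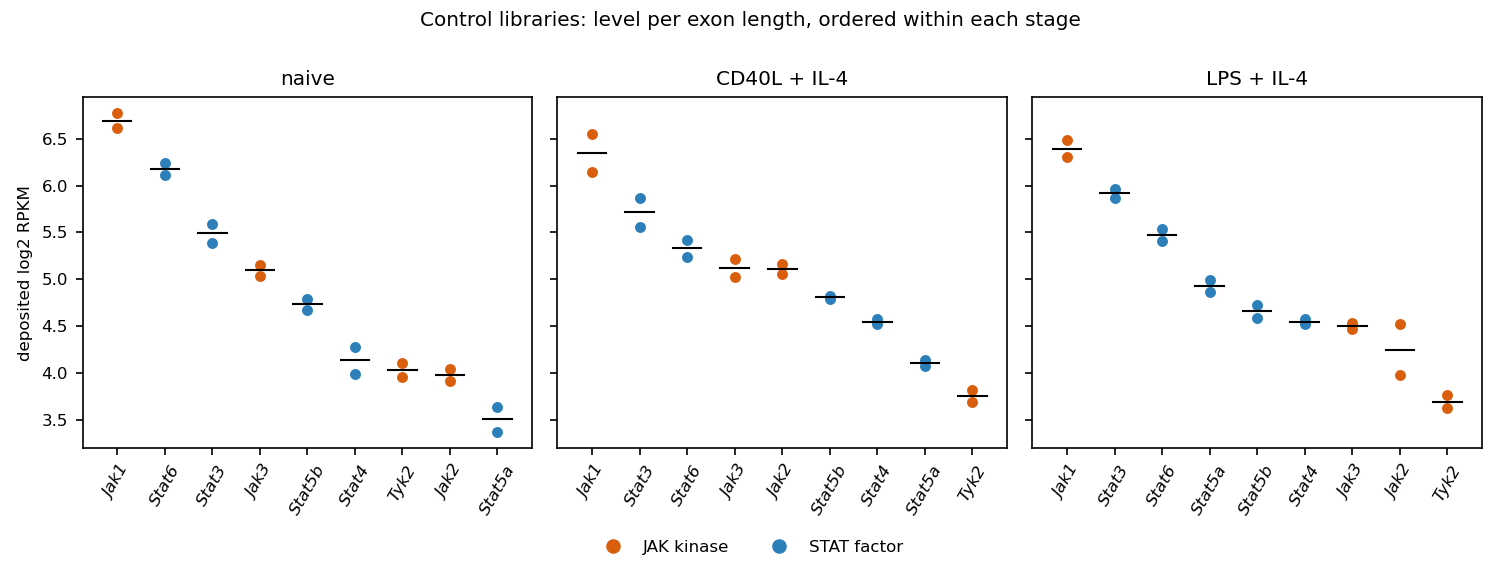
Deposited log2 RPKM (vertical axis) of the 9 genes in the 2 control libraries of each stage, ordered from highest to lowest mean. Points are libraries, bars their mean. Jak1 was highest in all 3 stages, while Stat6 came just after Jak1 in naive cells and after Stat3 in both cultures. Stat5a was last in naive cells and ahead of Stat5b after LPS + IL-4.

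How the genes changed upon culture in control cells was tested in 1 fit of all 24 libraries, with CPM scaled over all of them. Stat5a, a transducer of IL-2 family cytokines, rose and Stat6, the factor activated by IL-4, fell in both cultures. Stat5a was 39.9 and 48.6 CPM in naive cells, 72.2 and 66.9 CPM after CD40L + IL-4 and 119 and 115 CPM after LPS + IL-4. The 3 stages did not overlap, and both rises were DE, with log2 fold changes of 0.65 ± 0.16 (SE; adjusted p = 0.0019) and 1.40 ± 0.16 (adjusted p = 1.89e-07). Stat6 was 282 and 291 CPM in naive cells, against 168 and 141 CPM after CD40L + IL-4 and 169 and 166 CPM after LPS + IL-4. It fell by 0.89 ± 0.13 (adjusted p = 6.8e-06) and 0.78 ± 0.12 (adjusted p = 1.68e-05) on the log2 scale. These stage comparisons are wide ones: 35.1% of the 13684 genes tested were DE between CD40L + IL-4 and naive cells, 47.5% between LPS + IL-4 and naive cells and 31.2% between the cultures, against 3 of the 9 genes in each. The stages also differ in depth, and whether they were sequenced together is not given in the sources used here, so stage and any sequencing batch cannot be told apart.

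Jak2 and Jak3 separated the cultures. Jak2, which serves receptors of the IL-3, IL-5 and GM-CSF type and the interferon gamma receptor, was 83.2 and 75.8 CPM in naive control cells and 171 and 175 CPM after CD40L + IL-4, a rise of 1.12 ± 0.24 (adjusted p = 0.000488). After LPS + IL-4 it was 111 and 79.2 CPM, which overlapped the naive libraries, and it was lower there than in CD40L + IL-4 by a log2 fold change of -0.87 ± 0.23 (adjusted p = 0.00462). Jak3 was 139 and 150.1 CPM in naive cells and 157 and 132 CPM after CD40L + IL-4, which was no detectable difference (SE of the log2 fold change 0.11, adjusted p = 1). After LPS + IL-4 it was 91.0 and 90.7 CPM, DE against naive cells (-0.67 ± 0.11, adjusted p = 2.12e-05) and against CD40L + IL-4 (-0.67 ± 0.11, adjusted p = 6.06e-05). Stat5a also differed between the cultures, by 0.75 ± 0.16 (adjusted p = 0.000595). All 9 of these stage differences passed the adjusted p in each of 9 alternatives, and those of 2 fell under the fold threshold without 1 library: Stat5a in CD40L + IL-4 without naive control replicate 1 (0.52) and Jak3 between the cultures without CD40L + IL-4 control replicate 1 (-0.54). Jak1 passed the adjusted p but not the fold in both cultures against naive cells (-0.45 ± 0.15 and -0.40 ± 0.15, adjusted p = 0.0185 and 0.0233). So did Stat4 (0.48 ± 0.20 and 0.38 ± 0.19, adjusted p = 0.0466 and 0.0908) and Tyk2 (-0.22 ± 0.12 and -0.38 ± 0.12, adjusted p = 0.141 and 0.00791). Stat3 did so after LPS + IL-4 alone (0.35 ± 0.15, adjusted p = 0.039), and Stat5b passed in no stage comparison.

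In naive cells 0 members were DE in any mutant by edgeR, DESeq2 or voom. Of the 12500 genes tested, 6.35% were DE in SpiB KO, 8.4% in PU.1 cKO and 14.1% in the double mutant, which kept part of its Spi1 at this stage. Without the fold, 0 members passed in SpiB KO (12.6% of all genes), 4 in PU.1 cKO (17.2%) and 4 in the double mutant (34.8%), and at an unadjusted p under 0.05 the counts were 1, 4 and 4. No share of all genes was taken at the unadjusted p, here or below. With the replicate number fitted as a block, Jak1, Jak2, Stat4, Stat5a, Stat5b and Stat6 passed in SpiB KO (-0.17 to -0.47, adjusted p = 0.00964 to 0.1496). The block added Jak1, Tyk2 and Stat4 in PU.1 cKO, and Jak2 and Stat4 in the double mutant. All were under the fold threshold, and no share of all genes was taken with the block in this stage. Between PU.1 SpiB DKO and either single mutant, 0 members were DE (7.21% of all genes against PU.1 cKO, 1.97% against SpiB KO), and 1 passed the unadjusted p in each. The values leaned one way all the same: 8 of 9 members in PU.1 cKO, all 9 in SpiB KO and 8 in the double mutant had a log2 fold change below 0, with medians of -0.31, -0.27 and -0.36 against -0.01, 0.01 and 0.00 over all genes tested. Both libraries were below both control libraries for 6, 6 and 4 members, which 26%, 21.2% and 27.2% of all genes tested were. These 3 comparisons share the same 2 control libraries, and members moved together across libraries, so these are not separate counts. The 9 B cell markers had medians of -0.22 (PU.1 cKO), -0.16 (SpiB KO) and -0.32 (double mutant) in the same comparisons, and 8 markers of plasmacytoid dendritic cells summed to 236 to 371 CPM in control, 1717 to 2188 in SpiB KO and 2319 to 2604 in the double mutant. Their part in the members' lower values was not tested.

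Stat6 was 259 and 278 CPM in naive control cells, 204 and 207 CPM in PU.1 cKO and 178 and 224 CPM in PU.1 SpiB DKO, with log2 fold changes of -0.39 ± 0.13 (adjusted p = 0.118) and -0.42 ± 0.13 (adjusted p = 0.0571). Stat5b passed the adjusted p in the same genotypes (-0.31 ± 0.10, adjusted p = 0.108, and -0.36 ± 0.10, adjusted p = 0.0375). Without the block Stat3 passed in PU.1 cKO alone, at 138 and 159.8 CPM against 183 and 216 CPM in control (-0.42 ± 0.13, adjusted p = 0.0898). Without it, Jak1 passed in PU.1 SpiB DKO alone, at 359.6 and 456 CPM against 515 and 579.97 CPM (-0.42 ± 0.15, adjusted p = 0.0785). A test of the difference between these genotypes did not pass for Stat3 (PU.1 SpiB DKO minus PU.1 cKO 0.30 ± 0.13, adjusted p = 0.213) or Jak1 (-0.13 ± 0.15, adjusted p = 0.7). Jak3 was the exception in direction: it was 128 and 144 CPM in control, 177 and 159 CPM in PU.1 cKO and 168 and 167 CPM in PU.1 SpiB DKO, above control in both (0.31 ± 0.11, adjusted p = 0.132, and 0.31 ± 0.11, adjusted p = 0.0817). Each of the 8 values named here that passed the adjusted p lost it in at least 1 fit that left out 1 library. The number of DE members in PU.1 SpiB DKO rose without its replicate 2 and without control replicate 1.

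**Figure D2:**
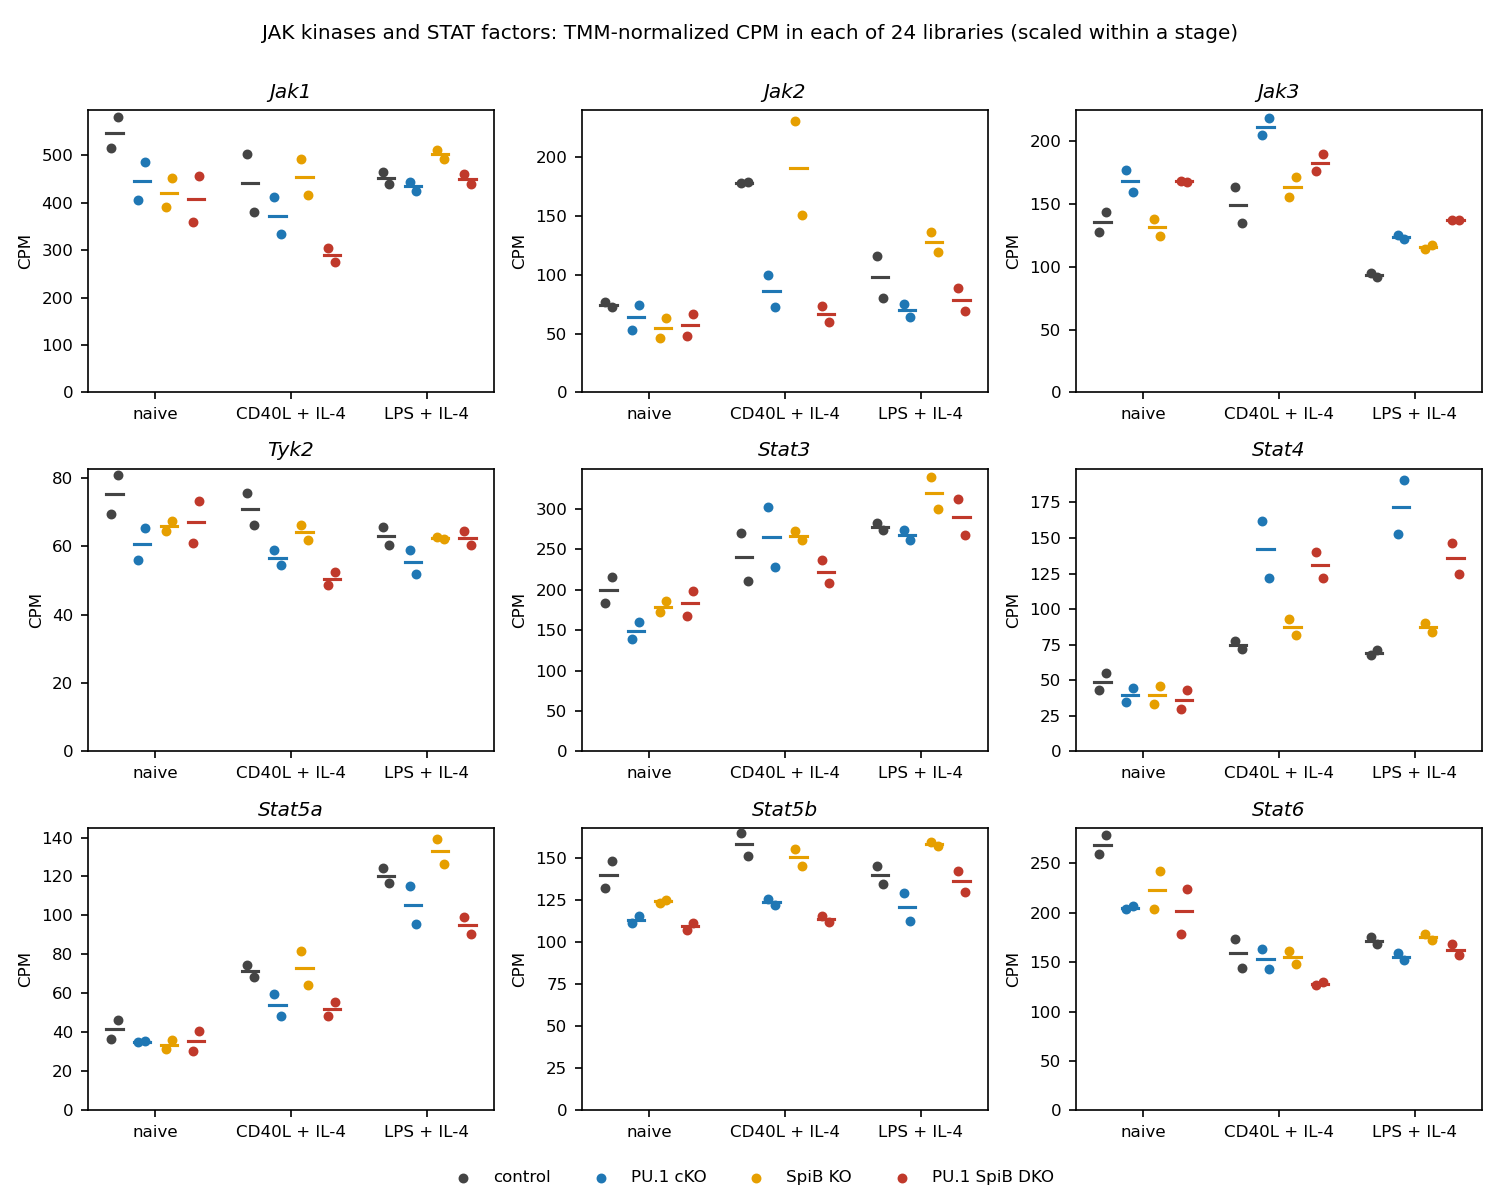
CPM (vertical axis, from 0, TMM-scaled within a stage) of each of the 9 genes in every library, grouped by stage and coloured by genotype. Points are libraries and bars the mean of 2. In both genotypes without PU.1, Stat4 stood above all control libraries of either culture, and Jak2 below those of CD40L + IL-4.

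In the CD40L + IL-4 cultures Jak2 was lower and Stat4 higher in both genotypes without PU.1, and Jak1 was lower in the double mutant. Jak2 was 178 and 179 CPM in control and 231 and 151 CPM in SpiB KO, against 99.3 and 72.8 CPM in PU.1 cKO and 73.6 and 59.7 CPM in PU.1 SpiB DKO. Both genotypes without PU.1 lay below every control and SpiB KO library, and the SpiB KO libraries lay on either side of control. Jak2 was 2.08-fold lower in PU.1 cKO (log2 fold change -1.06 ± 0.22, adjusted p = 0.0145) and 2.68-fold lower in PU.1 SpiB DKO (-1.42 ± 0.23, adjusted p = 0.00217), and PU.1 SpiB DKO was also below SpiB KO (-1.52 ± 0.23, adjusted p = 0.00213). With CPM scaled over all 24 libraries, Jak2 was 49.1 to 83.2 CPM in naive cells over all genotypes. On that scale the CD40L + IL-4 libraries of PU.1 SpiB DKO (71.8 and 58.4 CPM) lay within this range. Those of PU.1 cKO were 97.5 and 72.2 CPM, replicate 1 being above it. The double mutant was not detectably different from PU.1 cKO (-0.36 ± 0.22, adjusted p = 0.566). In PU.1 cKO the call was lost without the deep replicate 2 (-0.83, adjusted p = 0.16), and in PU.1 SpiB DKO it held in all 9 alternatives (adjusted p up to 0.0228).

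Jak1 was 503 and 379 CPM in control and 305 and 274 CPM in PU.1 SpiB DKO, 1.52-fold lower and DE (-0.61 ± 0.19, adjusted p = 0.0552). The PU.1 cKO libraries, at 412 and 333 CPM, overlapped control (-0.25 ± 0.19, adjusted p = 0.482), and the difference of PU.1 SpiB DKO from PU.1 cKO did not pass (-0.36 ± 0.19, adjusted p = 0.463). With voom the fold against control was just under the threshold (-0.57). The call against control was lost without control replicate 1 (-0.39, adjusted p = 0.301) or PU.1 SpiB DKO replicate 2 (-0.52, adjusted p = 0.263), and that against SpiB KO (-0.65 ± 0.19, adjusted p = 0.0491) was lost without SpiB KO replicate 1 (-0.53, adjusted p = 0.268) or PU.1 SpiB DKO replicate 2 (-0.58, adjusted p = 0.247). Tyk2, the partner of Jak1 at type I interferon receptors, was 75.5 and 66.1 CPM in control and 48.6 and 52.4 CPM in PU.1 SpiB DKO, under the fold threshold (-0.49 ± 0.15, adjusted p = 0.0547). In PU.1 cKO Tyk2 was 58.7 and 54.4 CPM and did not pass the adjusted p. Jak3 was 163 and 135 CPM in control and 204 and 218 CPM in PU.1 cKO (0.51 ± 0.16, adjusted p = 0.0725), also under the fold threshold. In all, 2 of 9 members were DE in PU.1 cKO (9.36% of the 12721 genes tested), 0 in SpiB KO (0.11%) and 3 in the double mutant (13.7%). Against SpiB KO, 2 members were DE in PU.1 SpiB DKO (11.4% of all genes), and against PU.1 cKO 0 were (3.01%). DESeq2, voom and an unadjusted p under 0.05 in edgeR also gave 0 members in this last comparison and in SpiB KO against control.

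In the LPS + IL-4 cultures Jak2 was not DE against control. It was 116 and 80.2 CPM in control and 136 and 119 CPM in SpiB KO. It was 75.4 and 63.8 CPM in PU.1 cKO and 88.8 and 68.9 CPM in the libraries labelled PU.1 SpiB DKO. Against control the log2 fold change was 0.39 ± 0.18 in SpiB KO (adjusted p = 0.386), -0.49 ± 0.18 in PU.1 cKO (adjusted p = 0.127, under the fold threshold) and -0.31 ± 0.18 in the double mutant (adjusted p = 0.219). The libraries labelled PU.1 SpiB DKO were lower than SpiB KO (-0.70 ± 0.18, adjusted p = 0.0255). The 2 control libraries differed by more than any other pair of this gene here, and without control replicate 2 it was lower in PU.1 cKO by 0.73 on the log2 scale. That left-out library made 2 members DE in PU.1 cKO in place of 1. With the replicate number as a block, which fits this stage because libraries of the same number deviated together, the Jak2 differences from control passed the adjusted p in SpiB KO (0.41, adjusted p = 0.0135) and in the double mutant (-0.30, adjusted p = 0.0118) as well, both under the fold threshold. Jak1 passed the test against control in no mutant of this stage with or without the block (log2 fold changes of -0.06 to 0.15). Tyk2 passed in PU.1 cKO with the block alone (-0.18, adjusted p = 0.0867, against 0.279 without it) and in no other mutant. The effect of losing both factors on Jak2 differed between the cultures by 1.03 ± 0.33 (adjusted p = 0.0401), and that difference was lost in 3 of the 8 fits that left out 1 library.

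Jak3 was the only kinase with higher mean levels in both genotypes without PU.1 than in control at each stage. After LPS + IL-4 it was 94.9 and 91.8 CPM in control and 114 and 117 CPM in SpiB KO. It was 125 and 122 CPM in PU.1 cKO and 137 in both of the libraries labelled PU.1 SpiB DKO. No mutant library overlapped control. In SpiB KO of this stage 7 of the 9 members lay above control in that way, and the share of all genes lying apart was taken for naive cells alone. The log2 fold changes of Jak3, 0.31 ± 0.07 in SpiB KO (adjusted p = 0.0701), 0.40 ± 0.07 in PU.1 cKO (adjusted p = 0.00635) and 0.56 ± 0.07 in the double mutant (adjusted p = 0.000498), passed the test and not the fold of 1.5, so Jak3 was DE in none, though voom put the last over it (0.60). Over the 9 comparisons with control, its adjusted p was under 0.15 in 6. None of the 6 tests of a difference between stages passed for it (adjusted p of 0.442 to 1). In the GENCODE annotation, 404 of its 5352 exon bases (7.55%) are shared with Insl3, and the kit is not stated to keep strand, so reads from those bases could come from either gene.

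**Figure D3:**
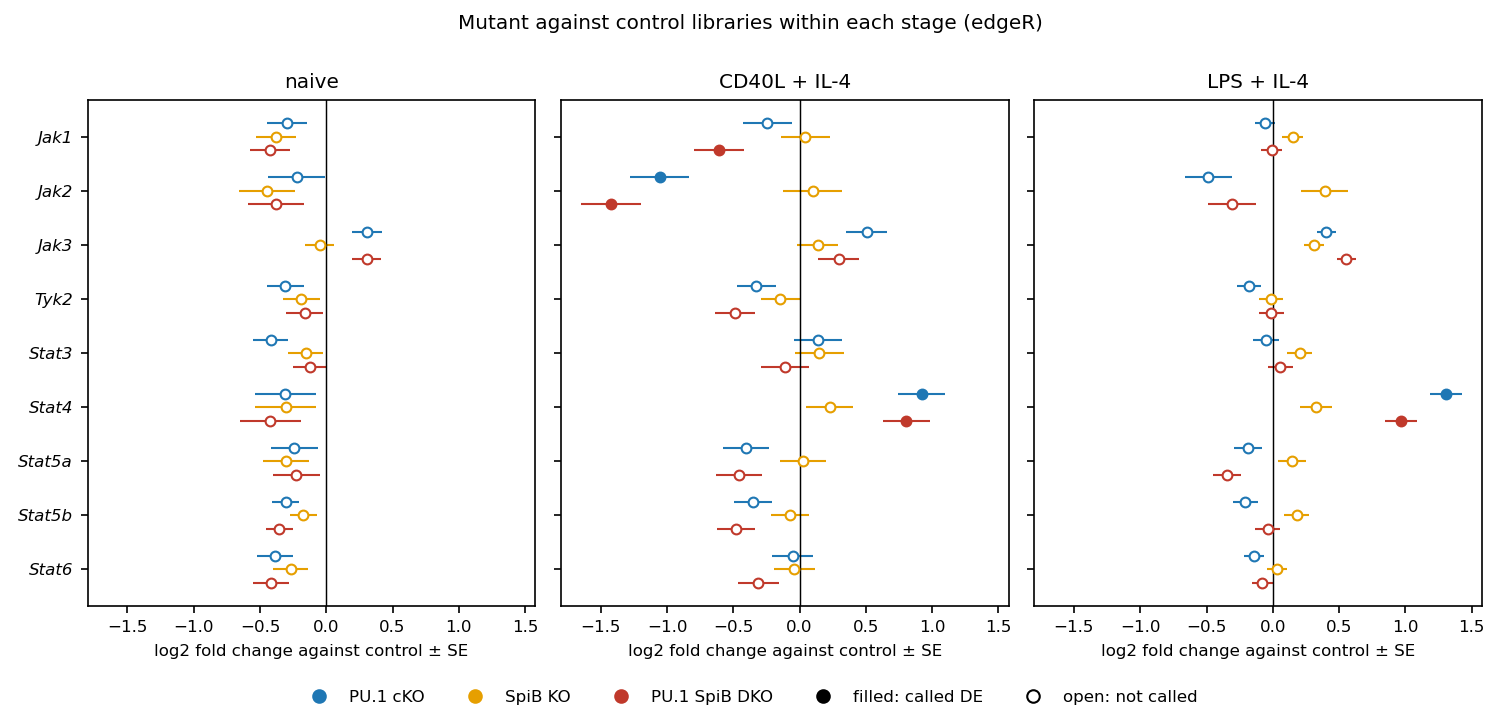
Log2 fold change against control ± SE (horizontal axis) of the 9 genes in each stage for PU.1 cKO, SpiB KO and PU.1 SpiB DKO (colours), from edgeR. Filled points were called DE: Stat4 in both cultures of the genotypes without PU.1, Jak2 in their CD40L + IL-4 cultures, and Jak1 after CD40L + IL-4 in PU.1 SpiB DKO.

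Stat4, which transduces IL-12 and type I interferon signals in T and NK cells, was the member that was DE and higher without PU.1. In CD40L + IL-4 cultures it was 77.5 and 72.1 CPM in control and 93.2 and 82.0 CPM in SpiB KO, against 162 and 122 CPM in PU.1 cKO and 139.9 and 122 CPM in PU.1 SpiB DKO. In LPS + IL-4 cultures it was 67.8 and 71.1 CPM in control and 90.4 and 84.1 CPM in SpiB KO, against 153 and 190.5 CPM in PU.1 cKO and 147 and 125 CPM in the libraries labelled PU.1 SpiB DKO. In both cultures the libraries of the genotypes without PU.1 lay above all others, and SpiB KO lay just above control.

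The rise in CD40L + IL-4 was 1.89-fold in PU.1 cKO (0.92 ± 0.18, adjusted p = 0.00902) and 1.75-fold in PU.1 SpiB DKO (0.80 ± 0.18, adjusted p = 0.0129). In LPS + IL-4 it was 2.47-fold in PU.1 cKO (1.30 ± 0.12, adjusted p = 0.000169) and 1.95-fold in the libraries labelled PU.1 SpiB DKO (0.97 ± 0.12, adjusted p = 0.000341). All 4 rises stayed over the fold and adjusted p thresholds in each of their 9 alternatives, with an adjusted p of at most 0.0741. Stat4 was the 1 member DE in each of the 2 LPS + IL-4 comparisons, where 6.67% and 13.6% of the 12445 genes tested were DE, and no member was DE in SpiB KO (2.29%). In SpiB KO its log2 fold changes were 0.23 ± 0.18 (adjusted p = 1) and 0.33 ± 0.12 (adjusted p = 0.253), and leaving out control replicate 1 of LPS + IL-4 made 1 member DE in the latter. DESeq2 and voom called 0 members DE in SpiB KO after LPS + IL-4, where 2 passed an unadjusted p under 0.05 in edgeR.

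Losing SpiB as well gave no higher Stat4 than losing PU.1 alone. The libraries labelled PU.1 SpiB DKO were lower than PU.1 cKO in LPS + IL-4 (-0.34 ± 0.12, adjusted p = 0.0719, under the fold threshold, so 0 members were DE by edgeR, DESeq2 or voom where 8.1% of all genes were). That difference was lost without PU.1 cKO replicate 2 (-0.16, adjusted p = 0.485) or PU.1 SpiB DKO replicate 2 (-0.25, adjusted p = 0.27). Against SpiB KO they were higher (0.64 ± 0.12, adjusted p = 0.00609), and Stat4 and Jak2 were the 2 members DE there (8.09%). Without PU.1 SpiB DKO replicate 1 the fold of Stat4 there (0.51), and without replicate 2 that of Jak2 (-0.55), was under the threshold. An interaction of both losses, that is the effect of the double mutant less the sum of the single effects, was -0.67 ± 0.17 for Stat4 in LPS + IL-4 (adjusted p = 0.167). SpiB KO alone carries no Cre, so Cre does not cancel in this interaction or in comparisons of SpiB KO with control or the double mutant. Its part cannot be told apart there. In LPS + IL-4 the fit with the replicate block gave an interaction of -0.66 (adjusted p = 0.0434) for Stat4 and -0.29 (adjusted p = 0.117) for Stat5a, where 10.3% of all genes passed. The block changed no DE call of a member in the other 5 LPS + IL-4 comparisons, since the fold is part of that call, but it lowered the adjusted p of many. On adjusted p alone, 7 members in place of 3 passed in PU.1 cKO against control (29.8% of all genes in place of 19%), 5 in place of 1 in SpiB KO (14.2% in place of 5.13%) and 4 in place of 3 in the libraries labelled PU.1 SpiB DKO (58% in place of 48%). Between the libraries labelled PU.1 SpiB DKO and the single mutants, 6 in place of 1 passed against PU.1 cKO (50.1% in place of 36.3%) and 7 in place of 5 against SpiB KO (43% in place of 30%). For Stat4 this added the difference of SpiB KO from control (0.33, adjusted p = 0.107 with the block). Without the block 0 members passed edgeR's interaction test in naive cells, CD40L + IL-4 or LPS + IL-4 (1, 0 and 1 at an unadjusted p under 0.05), where 0.936%, 1.17% and 1.48% of all genes did, and with DESeq2 1 member passed after LPS + IL-4.

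In naive cells Stat4 did not rise: it was 42.9 and 55.2 CPM in control and 33.3 and 45.9 CPM in SpiB KO. The values were 34.5 and 44.6 CPM in PU.1 cKO and 29.8 and 43.2 CPM in PU.1 SpiB DKO, and all overlapped control. Within each replicate number every mutant lay below control, though replicate numbers were not treated as pairing in this stage. With the replicate block the log2 fold changes were -0.31 in PU.1 cKO (adjusted p = 0.0579), -0.31 in SpiB KO (adjusted p = 0.064) and -0.44 in PU.1 SpiB DKO (adjusted p = 0.00912). All were under the fold threshold, none passed the adjusted p without the block, and no share of all genes was taken with it here. The lower naive means of the mutants are part of the differences that follow. The effect of losing PU.1 was larger in culture than in naive cells by 1.24 ± 0.28 (CD40L + IL-4, adjusted p = 0.0136) and 1.58 ± 0.27 (LPS + IL-4, adjusted p = 0.00339), and that of losing both by 1.24 ± 0.28 (adjusted p = 0.00628) and 1.32 ± 0.27 (adjusted p = 0.0028). Between the 2 cultures neither effect differed past the threshold (0.34 ± 0.27 and 0.08 ± 0.27, adjusted p = 0.661 and 0.888). All 4 differences between culture and naive cells held in their 13 alternatives. Naive cells of the double mutant kept part of their Spi1, so the naive side of its differences is not a full loss of both factors. Of all genes tested, 9.05%, 6.34%, 16.8% and 29.6% had such a difference in the 4 comparisons, and 28.6% (both factors) and 3.09% (PU.1) between the cultures.

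**Figure D4:**
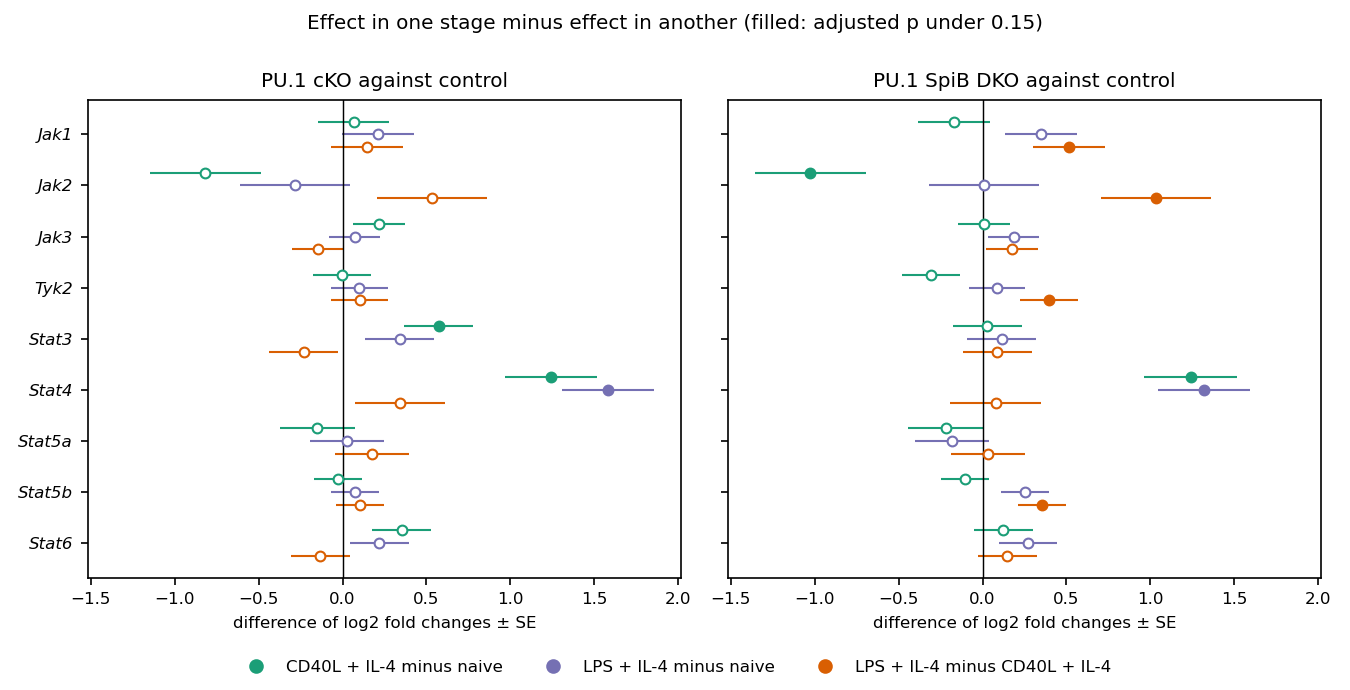
Difference of log2 fold changes against control between 2 stages ± SE (horizontal axis) for PU.1 cKO (left) and PU.1 SpiB DKO (right), from the fit of 24 libraries. Filled points had an adjusted p under 0.15. Stat4 stood furthest to the right in both, by 1.24 to 1.58, and Jak2 in PU.1 SpiB DKO lay at -1.03 and 1.03 for the comparisons with CD40L + IL-4.

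T and NK cells are the lymphocytes known for Stat4, and some of their genes moved with the genotype. The summed CPM of 10 T cell markers in CD40L + IL-4 was 69.1 to 73.6 in control, 99.0 to 112 in SpiB KO, 120.5 to 133 in PU.1 cKO and 264 to 265 in PU.1 SpiB DKO. After LPS + IL-4 it was 34.1 to 42.8, 55.9 to 63.4, 109 to 111 and 171 to 189 in the same order. In naive cells the sum went from 27.4 to 67.2 in control to 533 to 534 in PU.1 SpiB DKO. The genes behind the sum differed by stage. In naive cells its rise came from Cd8a (mean 7.16 CPM in control and 249 in PU.1 SpiB DKO), Cd8b1, Cd4 and Zap70, while Thy1 was 5.04 and 3.72. After CD40L + IL-4 it came mostly from Thy1 (53.4 and 179) and Zap70 (13.6 and 71.6), with Cd8a at 1.13 and 0.70. After LPS + IL-4 the main genes were again Thy1 (34.9 and 117) and Zap70 (1.92 and 57.1). The naive and culture sums are thus not 1 quantity. The CD3 chains that define T cells, and that the sort selected against, were near 0: Cd3d, Cd3e and Cd3g together came to at most 2.64 CPM in any library and to at most 0.18 CPM in LPS + IL-4, Cd3e had no count in 12 libraries and Trat1 none in 16. The 7 NK cell markers summed to 1.12 to 1.25 CPM in control, 4.29 to 7.94 in PU.1 cKO and 13.1 to 15.5 in PU.1 SpiB DKO after LPS + IL-4. That rise came from Prf1 (means of 1.07, 5.68 and 10.6 CPM in the same order) and Eomes (0.02, 0.27 and 3.49). Klrb1c, Klrd1, Klrk1, Nkg7 and Ncr1 had means of 0.13 CPM or lower in these groups. In naive cells the sum of the NK cell markers was higher, at 50.6 to 101 CPM in control, 47.1 to 102 in PU.1 cKO, 118 to 163 in SpiB KO and 141 to 198 in PU.1 SpiB DKO. Ncr1 had no count in the 16 cultured libraries and was 3.35 to 13.9 CPM in the naive ones. Plasma cell markers moved too. Their sum over 7 genes after CD40L + IL-4 was 1338 to 1504 CPM in control, 1282 to 1864 in SpiB KO, 2207 to 2385 in PU.1 cKO and 2819 to 2973 in PU.1 SpiB DKO. After LPS + IL-4 it was 726 to 779.8, 847 to 899.9, 1422 to 1539 and 1986 to 2074 in the same order. The part of these markers in the Stat4 and Jak2 results was not tested. In these bulk samples a change in the number of cells of a type and a change in RNA per cell cannot be told apart.

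**Figure D5:**
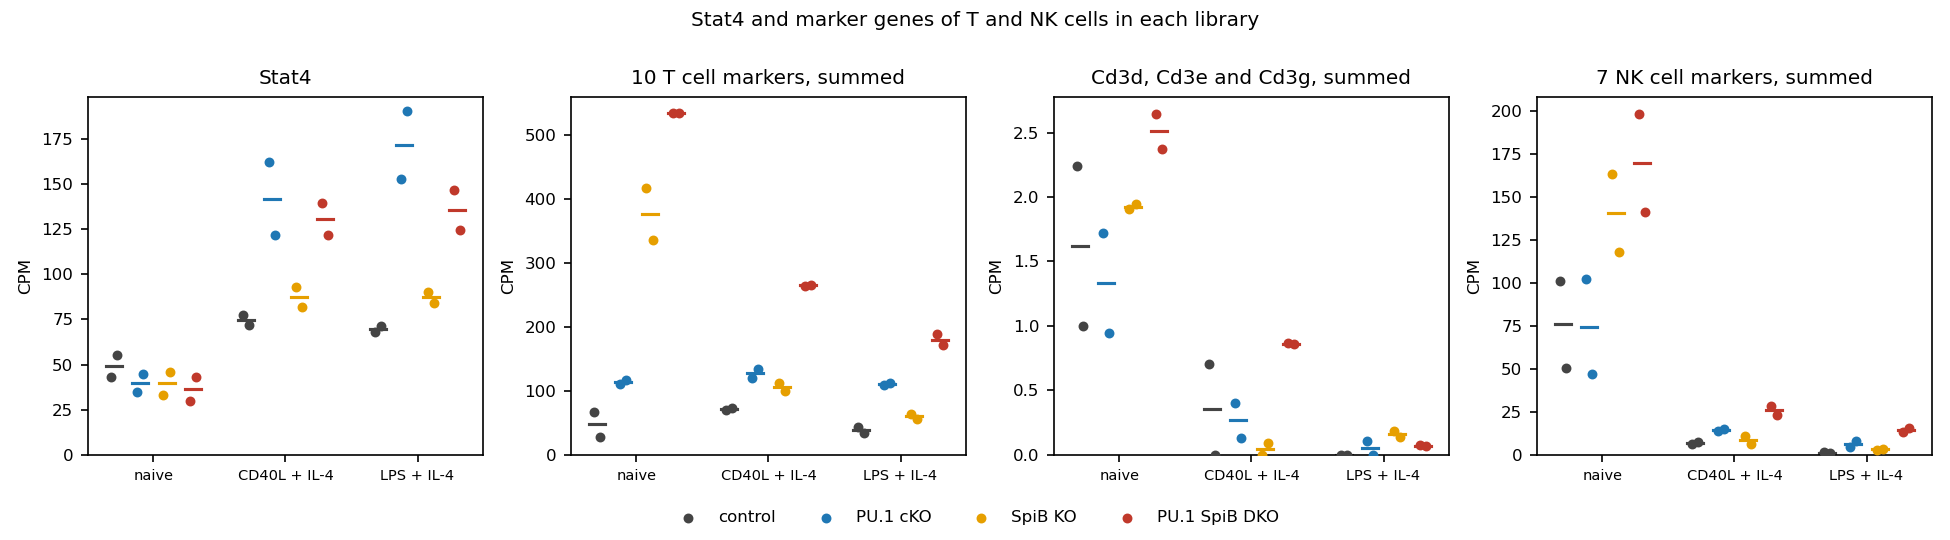
CPM (vertical axes, from 0) of Stat4, of 10 T cell markers summed, of Cd3d, Cd3e and Cd3g summed and of 7 NK cell markers summed in every library, by stage and genotype. Points are libraries, bars the mean of 2. The marker sums were highest in naive PU.1 SpiB DKO libraries, where Stat4 was 29.8 and 43.2 CPM, and the CD3 chains stayed at or under 2.64 CPM.

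Stat4 and Jak2 moved in opposite directions, so their promoters were searched, as 300-base windows of RefSeq (GRCm38.p6) reaching 250 bases upstream of each annotated start. Neither they nor any of the 12 windows of the 9 genes held GAGGAAGT, a full PU.1 and SpiB site, on either strand, which 3.2% of all 32851 windows do. None held the Ets-IRF composite (GGAA, any 2 letters, then GAAA, in 2.72% of all windows) either. The STAT sites, TTC and GAA with any 3 or any 4 letters between, occur in 8.3% and 6.95% of all windows and in none of the 12. After that, the 3 overlapping stretches of 6 letters within GAGGAAGT were searched. At least 1 of them occurred in 9 of the 12 windows and in 54.8% of all windows. The matches of the 2 genes are shown for orientation, with the 6 letters in capitals, on the plus strand at chr1:52008035-52008064 (the second annotated start of Stat4, 193 bases upstream) and chr19:29251743-29251772 (48 bases upstream of Jak2). GGAAGT occurs in 23.8% and AGGAAG in 35.4% of all windows, so these are matches of letters, not sites shown to be bound.
Stat4: aaggaatccgctGGAAGTcagtgatccctg
Jak2: ggcgtgggctgcAGGAAGctgaggcagagc
Stat4 lies on chr1:51987106-52107189, and 26.7% of its exon bases are shared in GENCODE with Gm28177, so reads from those bases could come from either. Jak2 lies on chr19:29251803-29313095 and shares no exon base with another gene.

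The remaining STATs changed by less than the fold threshold in every comparison with control. Stat5a and Stat5b, near copies that act downstream of IL-2, IL-7 and related cytokines, were lower in PU.1 SpiB DKO after CD40L + IL-4. Stat5a was 74.8 and 68.4 CPM in control and 48.7 and 55.6 CPM in PU.1 SpiB DKO (-0.46 ± 0.18, adjusted p = 0.114). Stat5b was 165 and 151 CPM in control and 115 and 112 CPM in PU.1 SpiB DKO (-0.48 ± 0.14, adjusted p = 0.0514). PU.1 cKO was lower too, at 59.9 and 48.6 CPM of Stat5a and 126 and 122 CPM of Stat5b, but passed the adjusted p for neither. In neither gene did the libraries of the genotypes without PU.1 overlap control. The share of all genes lying apart from control was taken for naive cells alone. After LPS + IL-4 Stat5a was 124 and 117 CPM in control and 139 and 126 CPM in SpiB KO. It was 115 and 95.8 CPM in PU.1 cKO and 99.3 and 90.4 CPM in the libraries labelled PU.1 SpiB DKO. It was lower in those than in control (-0.34 ± 0.11, adjusted p = 0.0336) and in SpiB KO (-0.49 ± 0.11, adjusted p = 0.0126), while Stat5b did not differ detectably from control there (-0.04 ± 0.09, adjusted p = 0.786). With the replicate block both also passed in PU.1 cKO (Stat5a -0.20, adjusted p = 0.0577, and Stat5b -0.21, adjusted p = 0.0421), and Stat5b in SpiB KO (0.18, adjusted p = 0.135). The 2 genes lie head to head on chr11, 346 bases apart, Stat5b at chr11:100780731-100859004 on the minus strand and Stat5a at chr11:100859351-100885169 on the plus strand. Of the stretches of 50 bases in their transcripts, 14.7% of those of Stat5a and 11.1% of those of Stat5b occur in the other, and since the authors kept uniquely mapped reads only, such reads may be missing from both.

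Stat3, the factor of IL-6, IL-10 and IL-21 signals, was at most 0.20 from control on the log2 scale in every mutant of both cultures, with an adjusted p of 0.415 or more, although with the replicate block the difference of 0.20 in SpiB KO after LPS + IL-4 passed (adjusted p = 0.11). In LPS + IL-4, for example, it was 283 and 274 CPM in control and 274 and 262 CPM in PU.1 cKO. Stat6 passed the test against control in neither culture without the block. It was 174 and 144 CPM in control and 126 and 130.2 CPM in PU.1 SpiB DKO after CD40L + IL-4 (-0.31 ± 0.16, adjusted p = 0.224), where both libraries lay below both control libraries. Its levels after LPS + IL-4 were 176 and 168 CPM in control and 168 and 157 CPM in the libraries labelled PU.1 SpiB DKO (-0.08 ± 0.08, adjusted p = 0.474). With the block it passed in PU.1 cKO after LPS + IL-4 (-0.14, adjusted p = 0.114). It also passed with the block in PU.1 SpiB DKO after CD40L + IL-4 (-0.30, adjusted p = 0.112), a stage where replicate numbers were not treated as pairing. The standard errors of 0.10 to 0.23 in naive cells and CD40L + IL-4, against 0.07 to 0.18 in LPS + IL-4, set what could be detected. The LPS + IL-4 libraries were deeper, and the part of depth in these errors was not tested.

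The members were also compared among themselves over the 24 libraries, as log2 CPM centred on the mean of each stage. These correlations are descriptions, since the libraries share genotypes and controls. Jak1, Jak2, Tyk2, Stat5a, Stat5b and Stat6 went together, with Pearson r between 0.65 (Jak2 and Stat6) and 0.86 (Jak1 and Stat6). Stat3 was tied to them less closely, at 0.48 (Jak2) to 0.72 (Stat6). Jak3 and Stat4 went with each other (0.51) and against most of the rest, down to -0.59 for Jak3 and Stat5b and -0.49 for Stat4 and Jak2. Over the 13623 genes that had a symbol and passed the filter over all libraries, the genes most like Stat4 were Mllt3 (r = 0.90), Trp53i11 (0.88) and Ighv1-34 (0.86), those most like Jak2 were Ezh1 (0.94), Pecam1 (0.93) and Chst3 (0.93), and those most like Jak3 were Spock2 (0.88), Pear1 (0.87) and Mybpc3 (0.87). The closest gene was Dock11 for Jak1 (0.93), Fnbp1 for Tyk2 (0.92), Pik3cd for Stat3 (0.83), Notch2 for Stat5a (0.89), Gdf11 for Stat5b (0.97) and Vps11 for Stat6 (0.91).

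Upstream of the kinases, 22 cytokine receptor chains were examined as a list, all of them tested. In PU.1 SpiB DKO against control 6 were DE and higher and 5 DE and lower in naive cells, 4 and 3 after CD40L + IL-4 and 4 and 3 after LPS + IL-4, where 14.1%, 13.7% and 13.6% of all genes tested were DE in either direction, with medians of 0.02, -0.15 and 0.27 against 0.00, 0.00 and 0.01 over all genes. Il2rb, the signalling chain of the IL-2 and IL-15 receptors, rose at all 3 stages. It was 4.30 and 2.10 CPM in control and 44.7 and 42.4 CPM in PU.1 SpiB DKO after CD40L + IL-4 (3.74 ± 0.39, adjusted p = 0.00015), and 2.59 and 5.40 CPM against 58.9 and 72.5 CPM after LPS + IL-4 (3.96 ± 0.36, adjusted p = 5.8e-05). Il2ra, the chain that raises the affinity for IL-2, rose in both cultures (2.03 ± 0.20 and 0.94 ± 0.18, adjusted p = 9.3e-05 and 0.0036). Il6ra fell at all 3 stages, from 14.1 and 18.1 CPM to 3.63 and 4.48 CPM in naive cells (-1.99 ± 0.24, adjusted p = 0.00053) and from 11.6 and 6.91 CPM to 4.21 and 3.75 CPM after LPS + IL-4 (-1.19 ± 0.25, adjusted p = 0.0059). Il10ra fell at all 3 as well (-0.96 ± 0.17, -1.30 ± 0.34 and -1.13 ± 0.14, adjusted p = 0.0045, 0.028 and 0.0003).

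Of 18 inhibitors of the pathway, 0 were higher and 1 lower in naive PU.1 SpiB DKO cells, 2 and 1 after CD40L + IL-4 and 5 and 0 after LPS + IL-4, against 14.1%, 13.7% and 13.6% of all genes DE in either direction. The medians were -0.07, -0.15 and 0.23 (0.00, 0.00 and 0.01 over all genes). Socs2, a STAT5-induced feedback inhibitor, was 215 and 204 CPM in control and 502 and 447 CPM in PU.1 SpiB DKO after CD40L + IL-4 (1.18 ± 0.21, adjusted p = 0.0041). After LPS + IL-4 it was 33.5 and 30.6 CPM against 255 and 176 CPM (2.76 ± 0.20, adjusted p = 1.5e-05). Socs3, the inhibitor of IL-6 type receptors, rose in the same cultures (0.63 ± 0.16 and 1.09 ± 0.15, adjusted p = 0.029 and 0.00056). In naive cells Socs2 had no count in either control library.

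Downstream, 12 STAT target genes were listed, of which 11 were tested in naive cells. In PU.1 SpiB DKO 2 were higher and 2 lower in naive cells, 4 and 3 after CD40L + IL-4 and 0 and 3 after LPS + IL-4, against 14.1%, 13.7% and 13.6% of all genes DE in either direction. The medians were 0.18, 0.29 and -0.14 (0.00, 0.00 and 0.01 over all genes). Fcer2a, which encodes CD23 and is induced through STAT6, fell at all 3 stages, for example from 791 and 719 CPM to 215 and 182 CPM after LPS + IL-4 (-1.93 ± 0.13, adjusted p = 1.1e-05). The Cre transgene of these mice is driven by the regulatory sequences of this gene. Bcl6, a repressor that germinal centres require, fell in naive cells (-1.73 ± 0.16, adjusted p = 0.0001) and after CD40L + IL-4 (-1.22 ± 0.42, adjusted p = 0.084). Pim2, a survival kinase, rose in naive cells (0.68 ± 0.17, adjusted p = 0.022) and after CD40L + IL-4 (2.08 ± 0.23, adjusted p = 0.00023). Stat2, a STAT of the interferon response that is not a member, was DE and lower in the libraries labelled PU.1 SpiB DKO at all 3 stages, with log2 fold changes of -0.71 in naive cells, -1.57 after CD40L + IL-4 and -0.64 after LPS + IL-4 (adjusted p = 0.083, 0.00091 and 0.031).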

How the data were processed

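RNA of sorted lymph node B cells (CD3- B220+ CD138-) was sequenced as 24 libraries. Subread was used by the authors for alignment to GRCm38, and uniquely mapped reads on RefSeq exons were summed by featureCounts (versions not given in the sources used here). The deposited tables hold raw counts for 27179 genes and, from the authors, quantile-normalized log2 RPKM, made for naive and CD40L + IL-4 libraries together (13569 genes) and for LPS + IL-4 apart (12634 genes). Genes without a symbol held 0.162% of counts and stayed in the totals. One extraction protocol, naming CD40L + IL-4, is attached to all samples, so the naive and LPS + IL-4 stages came from titles. The titles of the CD40L + IL-4 libraries name no stage, and theirs was taken from the study.

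Counts were tested with edgeR 4.0.16 in R 4.3.3 (quasi-likelihood, TMM, at least 0.5 CPM in at least 2 libraries), 8 libraries of a stage per fit, with the authors' thresholds. Comparisons of stages, and of effects between stages, used 1 fit of 24 libraries and 12 groups, the latter with no fold threshold. Scaling over 24 libraries in place of a stage moved ratios within a stage by at most 1.07-fold. The standard error is the log2 fold change over the root of F. The scripts were checked on simulated counts. Alternatives were DESeq2 1.42.0, its size factors in edgeR, voom (limma 3.58.1, the authors' method), no filter, an adjusted p under 0.05, a replicate block, no RPKM threshold and leaving out each library.

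Members and gene lists were chosen with earlier results of these data known. All 9 members are named. Of each pathway list, up to 2 rises and 2 falls were named among genes DE the same way in PU.1 SpiB DKO at 2 or more stages, and the genes most like a member by Pearson r. The 6-letter search came after values were seen. Replicate numbers were treated as pairing in LPS + IL-4 alone, where deviations of libraries with the same number correlated at 0.386 to 0.514 in 6 of 6 pairs. In naive cells 5 of 6 and in CD40L + IL-4 4 of 6 exceeded 0.1. Promoters came from RefSeq (GRCm38.p6), and exon overlaps and transcripts from GENCODE vM21.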

Additional observations from a re-analysis of the deposited data

Results flagged for a closer look

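The effect of a genotype differed between stages in 10 cases, each tested as an interaction of genotype and stage in edgeR's fit of all 24 libraries and adjusted over all 13684 genes tested. Values are differences of log2 fold changes against control.

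For Stat4 the effect of losing both factors was larger by 1.24 ± 0.28 in CD40L + IL-4 (adjusted p = 0.00628) and by 1.32 ± 0.27 in LPS + IL-4 (adjusted p = 0.0028) than in naive cells, and that of losing PU.1 by 1.24 ± 0.28 (adjusted p = 0.0136) and 1.58 ± 0.27 (adjusted p = 0.00339). For Jak2 the effect of losing both was -1.03 ± 0.33 in CD40L + IL-4 minus naive cells (adjusted p = 0.0605) and 1.03 ± 0.33 in LPS + IL-4 minus CD40L + IL-4 (adjusted p = 0.0401). In the last comparison Jak1 (0.52 ± 0.21, adjusted p = 0.11), Tyk2 (0.40 ± 0.17, adjusted p = 0.126) and Stat5b (0.36 ± 0.14, adjusted p = 0.0986) passed as well, in the direction of lower values in CD40L + IL-4, and 28.6% of all genes tested passed there. For Stat3 the effect of losing PU.1 was higher in CD40L + IL-4 than in naive cells by 0.57 ± 0.21 (adjusted p = 0.141). The values of Jak1, Tyk2 and Stat3 each lost the call in 5 of 8 fits that left out 1 library and that of Stat5b in 4, whereas those of Stat4 held in all 8 for each of its 4 cases. LPS + IL-4 libraries labelled PU.1 SpiB DKO overlapped control in Spi1, which applies to each difference that uses them. Naive PU.1 SpiB DKO libraries held 103 and 110.2 CPM of Spi1, against 59.5 and 53.3 CPM in naive PU.1 cKO. The study describes marked retention of the floxed exon there, which applies to each difference that uses naive cells of that genotype.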

How the results depend on the processing

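Counts of DE members stayed within 1.5 times of the reported count under DESeq2 in 26 of 27 comparisons, under its size factors in 26, under voom in 26, without the filter in 25, at an adjusted p under 0.05 in 24 and without the RPKM threshold in 18 of 18. With voom 2 members were DE in PU.1 SpiB DKO after LPS + IL-4. The LPS + IL-4 interaction had 1 member with DESeq2, 1 without the filter and 2 with the replicate block. The PU.1 SpiB DKO effect between CD40L + IL-4 and naive cells had 1 member at 0.05, and that between LPS + IL-4 and CD40L + IL-4 had 2 without the filter and 1 at 0.05. The PU.1 cKO effect between CD40L + IL-4 and naive cells had 1 with DESeq2 size factors and 1 at 0.05.

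The replicate block was used as a pairing in LPS + IL-4 alone. Elsewhere numbers are only shared, and the block gave 1 member with a naive interaction, 4 for the PU.1 SpiB DKO effect in LPS + IL-4 minus naive cells, and 4, 2 and 1 for the PU.1 cKO effect in CD40L + IL-4 minus naive, LPS + IL-4 minus naive and LPS + IL-4 minus CD40L + IL-4. The other 21 counts stayed within 1.5 times, though on adjusted p alone the block let more members pass in naive cells.

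On leaving out 1 library, DE members ranged from 0 to 4 in naive PU.1 SpiB DKO, 1 to 3 in PU.1 cKO after CD40L + IL-4, 1 to 2 in PU.1 cKO, 0 to 1 in SpiB KO, 1 to 2 in PU.1 SpiB DKO against SpiB KO and 0 to 1 for the interaction after LPS + IL-4. For the effects between stages they ranged from 1 to 2, 1 to 3 and 0 to 4 in PU.1 SpiB DKO (CD40L + IL-4 minus naive, LPS + IL-4 minus naive, LPS + IL-4 minus CD40L + IL-4) and from 1 to 2 in PU.1 cKO (CD40L + IL-4 minus naive). The libraries not named in the text above were PU.1 cKO replicate 1 and control replicate 2 for the LPS + IL-4 interaction (1 each), naive PU.1 SpiB DKO replicate 2 for LPS + IL-4 minus naive (3), CD40L + IL-4 replicate 2 and naive replicate 2 of PU.1 SpiB DKO and naive control replicate 2 for CD40L + IL-4 minus naive (1 each), and control CD40L + IL-4 replicate 1 (1), PU.1 SpiB DKO CD40L + IL-4 replicate 2, PU.1 SpiB DKO LPS + IL-4 replicate 1 and control LPS + IL-4 replicate 2 (0 each) between the cultures. For PU.1 cKO they were both naive PU.1 cKO libraries, naive control replicate 2 and CD40L + IL-4 control replicate 2 (1 each). The cause was not tested. Of 589 values of single members, 477 kept their side of the threshold, 112 did not and 0 changed sign. With 2 libraries a group, standard errors were 0.07 to 0.23 on the log2 scale within stages, which limits the differences that can be seen. The part of depth in them was not tested.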
